A study of Mus musculus with 4 samples.

Results

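The 9 genes described here, Aldh1a1, Aldh1a2, Aldh1a3, Aldh1a7, Rbp4, Crabp1, Stra6, Cyp26b1 and Dhrs3, belong to the uptake, conversion, binding and breakdown of retinoids (vitamin A and its derivatives). They were taken by name from a table of 17691 mouse genes, and all 9 were found in it. The table comes from an RNA sequencing study of lung tissue from wild-type C57BL/6 mice aged 6 to 8 weeks, kept in a pathogen-free facility without co-housing. The bleomycin group had received bleomycin, a drug that breaks DNA and is used to injure the lung and provoke fibrosis. It was given intranasally, and the labels state 10 days. The PBS group had received phosphate-buffered saline by the same route and for the same 10 days. Each group has 2 libraries here, although the labels' protocol speaks of 4 groups and the design text of 3 replicates. The labels do not say whether each library came from its own animal or from a pool, so p-values reflect nothing beyond the spread of these 4 samples, and that spread may be technical.

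Retinol reaches tissues in the blood on the carrier protein RBP4, is taken into some cells through the receptor STRA6 and can be stored as esters that the enzyme LRAT makes. Inside cells it is oxidised in a reversible step to retinaldehyde, which DHRS3 can reduce back to retinol, and then irreversibly to retinoic acid by the ALDH1A retinaldehyde dehydrogenases. Retinoic acid is bound in the cytosol by CRABP1 and CRABP2, acts on genes through nuclear receptors, and is degraded by CYP26 enzymes. In the lung, retinoic acid is known for its part in the formation of alveoli, and fibroblasts rich in lipid droplets are known to store retinyl esters.

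Values are FPKM, fragment numbers scaled to transcript length and library size, so levels of different genes can be set side by side per length. The size of a single fragment, read from low values, put the libraries at an estimated 17200000 and 17800000 fragments with bleomycin and 17000000 and 17100000 with PBS. Lung markers were abundant in every library, with Sftpc, the surfactant protein C gene, at 7913 FPKM or more. The median SD of a gene was 0.115 between the bleomycin libraries and 0.0637 between the PBS libraries on the log2(FPKM + 1) scale. The groups also differed in Y-linked genes. Their summed level over 4 genes was 0.02 and 0.03 FPKM in the bleomycin libraries and 52.0 and 51.6 FPKM in the PBS libraries. The labels give no sex, and the treatment and this difference cannot be told apart in any comparison given below. In whole tissue, fewer cells of a type and less RNA per cell cannot be told apart either.

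Aldh1a1 and Aldh1a7 are close relatives on chromosome 19. Their separate promoter windows are shown to mark the stretch they have in common. The likeness of their transcripts bears on how their values are read. In the RefSeq tables of build GRCm38.p6, Aldh1a1 spans 20492583 to 20643463 and Aldh1a7 spans 20692953 to 20727556. The 300 bases from 250 before to 50 after the start site were compared (the more downstream of the 2 start sites listed for Aldh1a1, chr19:20601718-20602017, plus strand, and the single one of Aldh1a7, chr19:20727507-20727806, minus strand). Capitals mark the longest stretch without a difference, 65 bases that begin 94 bases before the start site in both genes.
Aldh1a1: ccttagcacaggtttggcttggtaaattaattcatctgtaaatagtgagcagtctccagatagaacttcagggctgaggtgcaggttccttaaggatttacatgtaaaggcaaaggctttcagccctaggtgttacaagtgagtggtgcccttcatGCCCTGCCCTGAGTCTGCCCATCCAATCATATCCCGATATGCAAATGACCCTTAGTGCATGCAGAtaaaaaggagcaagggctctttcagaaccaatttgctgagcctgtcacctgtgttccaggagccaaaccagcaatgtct
Aldh1a7: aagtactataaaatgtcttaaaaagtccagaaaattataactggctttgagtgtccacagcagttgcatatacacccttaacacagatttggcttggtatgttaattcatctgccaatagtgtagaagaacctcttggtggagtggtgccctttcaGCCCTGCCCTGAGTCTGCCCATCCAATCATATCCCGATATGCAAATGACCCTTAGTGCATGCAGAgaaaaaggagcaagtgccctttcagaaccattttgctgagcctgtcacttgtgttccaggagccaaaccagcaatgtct
Over the last 150 bases the windows were 94.7% identical when aligned, and over all 300 bases 70.2%. The transcripts, 2053 and 2066 bases long, were 88.7% identical over the aligned length. Of the 50-base windows of the Aldh1a7 transcript 7.49% occur without a mismatch in Aldh1a1, and of its 100-base windows 0.0508%. No such window is shared by any other pair among the 4 ALDH1A transcripts. Short fragments of Aldh1a1 and Aldh1a7 could thus be assigned to the wrong gene, and Aldh1a7, which is the lower of the pair by more than 10-fold, is the more exposed.

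Aldh1a1 fell after bleomycin, and it was the single gene of the 9 that passed the test. Rbp4, Aldh1a7, Aldh1a2 and Dhrs3 were also lower in both bleomycin libraries than in either PBS library but did not pass. Cyp26b1 overlapped between the groups. Aldh1a3 and Stra6 were low in every library and higher in both bleomycin libraries, and Crabp1 was low without a direction. The test was limma on log2(FPKM + 1), two-sided, on the 12986 genes that averaged 1 FPKM or more, p-values adjusted by the Benjamini-Hochberg method and a call made under 0.05. By that test 6 of the 9 genes could be tested, 0 rose, 1 fell and 5 did not pass. Over all genes tested 8.59% rose and 7.69% fell, so 1 call among 6 is near what the whole table shows (16.3% called in either direction). Of the 6, 5 separated the groups without overlap on the low side and 0 on the high side. Over all genes tested these shares were 35.0% and 31.5%. The median log2 change was -0.98 over the 6 against -0.02 over all genes. Aldh1a3 and Stra6, higher without overlap, lay under the filter and are not among the 6. The genes were chosen with earlier results of these data known, so these shares and this median only describe them. With 2 libraries against 2, an exact permutation test of a single gene cannot give a p below 0.3333, and the 5 tested genes without overlap, Aldh1a3 and Stra6 all stood at that value.

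**Figure D1:**
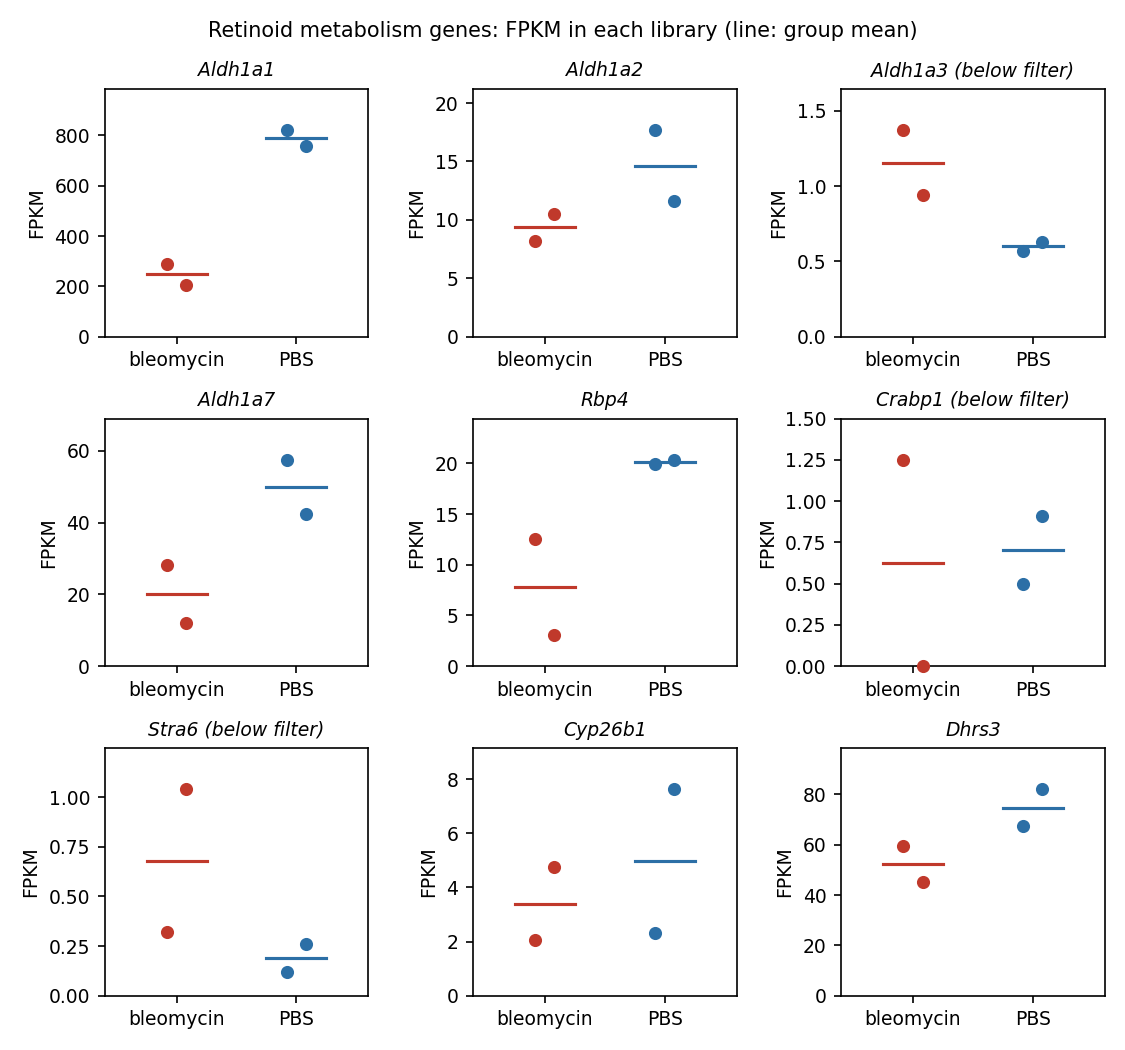
FPKM (vertical axes, each from 0 on its own scale) of the 9 retinoid metabolism genes in the bleomycin libraries (red, left) and the PBS libraries (blue, right); points are libraries and lines are group means. The bleomycin points lie below the PBS points for Aldh1a1, Aldh1a2, Aldh1a7, Rbp4 and Dhrs3, above them for Aldh1a3 and Stra6, and among them for Crabp1 and Cyp26b1.

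Among the retinaldehyde dehydrogenases, Aldh1a1 stood at 289 and 205 FPKM in the bleomycin libraries and at 820 and 758 FPKM in the PBS libraries. Both bleomycin libraries lay far below both PBS libraries, and the spread within a group was small beside that gap. The group means were 247 ± 59.5 FPKM with bleomycin and 789 ± 43.8 FPKM with PBS (SD, n = 2 per group, as for all means below), a 3.19-fold lower level, and the fitted log2 change was -1.69 with an SE of 0.19 (adjusted p = 0.0121 by limma; ± after a log2 change is the SE throughout). By mean level Aldh1a1 ranked 274th of all genes with bleomycin and 45th with PBS. The call did not hold when a PBS library was left out, with adjusted p = 0.166 without PBS replicate 1 and adjusted p = 0.168 without PBS replicate 2 by limma, and in those fits no gene of the table passed. Without bleomycin replicate 1 or replicate 2 the log2 fold change was -1.94 or -1.44. In those fits the PBS pair alone gives the spread and calls rose over the whole table, so their p-values say nothing of the stability of the call.

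Aldh1a7, the rodent relative of Aldh1a1, stood at 28.1 and 11.9 FPKM in the bleomycin libraries and at 57.5 and 42.5 FPKM in the PBS libraries. The groups did not overlap, but the bleomycin libraries differed from each other 2.36-fold. The log2 fold change of -1.38 ± 0.41 did not pass (adjusted p = 0.0882 by limma). It was -1.96 without bleomycin replicate 1 and -0.79 without replicate 2, and it passed in both of those fits, where the PBS pair alone gives the spread. Because fragments could be split between the pair, Aldh1a1 and Aldh1a7 were also summed. The sum was 318 and 217 FPKM with bleomycin and 878 and 801 FPKM with PBS, with a log2 fold change of -1.67 ± 0.21 (adjusted p = 0.0140 by limma). The fall of the sum thus rests on Aldh1a1, which exceeded Aldh1a7 by 10.3 and 17.2 times in the bleomycin libraries and by 14.3 and 17.9 times in the PBS libraries.

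Aldh1a2, a retinaldehyde dehydrogenase known from mesothelium and mesenchyme, stood at 8.16 and 10.5 FPKM in the bleomycin libraries and at 17.7 and 11.6 FPKM in the PBS libraries. The lower PBS library lay close to the higher bleomycin library, and the difference did not pass (log2 fold change -0.58 ± 0.23, adjusted p = 0.149 by limma). The 6 mesothelial markers summed to 126 and 360 FPKM with bleomycin and 241 and 176 FPKM with PBS. None was at 0, and 0 of 6 passed, against 16.3% of all genes tested. Msln made up most of the sum in bleomycin replicate 2. It stood at 60.9 and 257 FPKM with bleomycin and at 84.5 and 57.0 FPKM with PBS. Upk3b and Gpm6a were lower in both bleomycin libraries than in either PBS library, and the rest of the list overlapped between the groups. In each group the library with more summed mesothelial marker also had more Aldh1a2. Between the groups this order did not hold. Bleomycin replicate 2 had the highest mesothelial sum of all libraries but less Aldh1a2 than either PBS library. The part of mesothelial RNA in the Aldh1a2 values was not tested.

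Aldh1a3, the third retinaldehyde dehydrogenase, known from epithelia, was the one ALDH1A gene with more in the bleomycin libraries, at 1.37 and 0.94 FPKM, against 0.57 and 0.63 FPKM in the PBS libraries. At the estimated depth these values correspond to about 81 and 58 fragments with bleomycin and 33 and 37 with PBS. The mean of 0.88 FPKM lay under the filter. In a fit without a filter the log2 fold change was 0.42 ± 0.12 and did not pass (adjusted p = 0.12 by limma). The epithelial list tied to injury (Krt8, Krt18, Krt19, Cldn4, Sprr1a, Sfn, Lgals3 and Areg) summed to 878 and 876 FPKM with bleomycin and 391 and 383 FPKM with PBS. None was at 0, and 7 of 8 genes rose, against 8.59% of all genes tested. The part of this list in the Aldh1a3 values was not tested.

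Taken as a family, the 4 ALDH1A genes summed to 327 and 229 FPKM in the bleomycin libraries and to 896 and 813 FPKM in the PBS libraries. Aldh1a1 made up 88.5% and 89.8% of that sum with bleomycin and 91.5% and 93.3% with PBS. It was the leading family member in every library, and the family total followed it.

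Among the carriers and receptors, Rbp4, the gene of the retinol carrier of plasma, stood at 12.5 and 3.07 FPKM in the bleomycin libraries and at 20.0 and 20.4 FPKM in the PBS libraries. The PBS libraries were nearly equal, while the bleomycin libraries, both lower, differed 4.07-fold. The log2 fold change of -1.51 ± 0.57 did not pass (adjusted p = 0.136 by limma). It was -2.38 without bleomycin replicate 1 and -0.65 without replicate 2, so the size of the difference rests on which bleomycin library is used. Liver and fat tissue are known sources of Rbp4. All 11 hepatocyte markers fell, against 7.69% of all genes tested. Their sum was 13.7 and 10.04 FPKM with bleomycin and 125 and 123 FPKM with PBS. Apoh, Serpina1c, Hamp, Fga, Fgb, Serpina3k and Alb averaged under 1 FPKM with bleomycin and passed the filter through their PBS values. A gene as low in both groups would not have been tested. Alb, the albumin gene, stood at 1.01 and 0.66 FPKM in the bleomycin libraries and at 14.4 and 14.2 FPKM in the PBS libraries, none of the hepatocyte markers was at 0, and Rbp4 exceeded Alb in every library. The 7 adipocyte markers summed to 8.38 and 5.13 FPKM with bleomycin and 18.1 and 26.1 FPKM with PBS. Of the 3 that could be tested 2 fell, Cidec and Adrb3, against 7.69% of all genes tested. Cfd was lower in both bleomycin libraries than in either PBS library but did not pass. Among those under the filter, Adipoq and Retn were also lower without overlap, and Plin1 overlapped. Lep, the leptin gene, was at 0 or 0.02 FPKM in every library. The part of hepatocyte or adipocyte RNA in the Rbp4 values was not tested.

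Stra6, the retinol receptor, stood at 0.32 and 1.04 FPKM in the bleomycin libraries and at 0.12 and 0.26 FPKM in the PBS libraries. The bleomycin libraries were both higher but differed 3.25-fold. With the longest of its 4 transcripts, these values correspond to about 17 and 57 fragments with bleomycin and 6 and 14 with PBS. Stra6 lay under the filter, and without a filter it did not pass (log2 fold change 0.47 ± 0.24, adjusted p = 0.283 by limma).

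Crabp1, a cytosolic binding protein for retinoic acid, was at 1.25 FPKM and listed at 0 in the bleomycin libraries and at 0.50 and 0.91 FPKM in the PBS libraries. The groups overlapped, with both the highest and the lowest value in the bleomycin group. The values correspond to about 17 fragments in bleomycin replicate 1 and to 7 and 12 fragments with PBS. The listed 0 in bleomycin replicate 2 allows a level of up to 0.21 FPKM at the estimated depth (3 fragments, counting error only). No difference beyond the spread between libraries was found (adjusted p = 0.819 by limma without a filter).

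Dhrs3, the gene of the reductase that returns retinaldehyde to retinol and a known target of retinoic acid, stood at 59.7 and 45.0 FPKM in the bleomycin libraries and at 67.3 and 82.1 FPKM in the PBS libraries. The groups did not overlap, yet the nearest libraries of the groups lay closer together than the libraries within either group. The log2 fold change of -0.51 ± 0.17 did not pass (adjusted p = 0.114 by limma).

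Cyp26b1, the gene of an enzyme that degrades retinoic acid, stood at 2.05 and 4.74 FPKM in the bleomycin libraries and at 2.31 and 7.63 FPKM in the PBS libraries. The groups overlapped, and the PBS libraries differed from each other 3.30-fold, more than the group means did. The log2 fold change was -0.35 ± 0.55 (adjusted p = 0.681 by limma), and it turned positive, to 0.34, without PBS replicate 2 and, to 0.10, without bleomycin replicate 1.

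In order of level, Aldh1a1, Dhrs3 and Aldh1a7 came first in both groups, and the libraries of neighbours in that order did not overlap. With bleomycin, Aldh1a2 and Rbp4 followed at means of 9.35 and 7.79 FPKM with overlapping libraries, then Cyp26b1 at 3.39 FPKM, whose libraries overlapped with those of Rbp4. The remaining genes in the bleomycin libraries, Aldh1a3, Stra6 and Crabp1, could not be ranked beyond their spread. With PBS, Rbp4 at 20.2 FPKM stood above Aldh1a2 at 14.7 FPKM and Cyp26b1 at 4.97 FPKM without overlap. Crabp1 and Aldh1a3 overlapped there, and Stra6 was the lowest. Within the bleomycin group, Aldh1a2, Cyp26b1 and Stra6 were higher in replicate 2 and the other 6 genes in replicate 1.

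**Figure D2:**
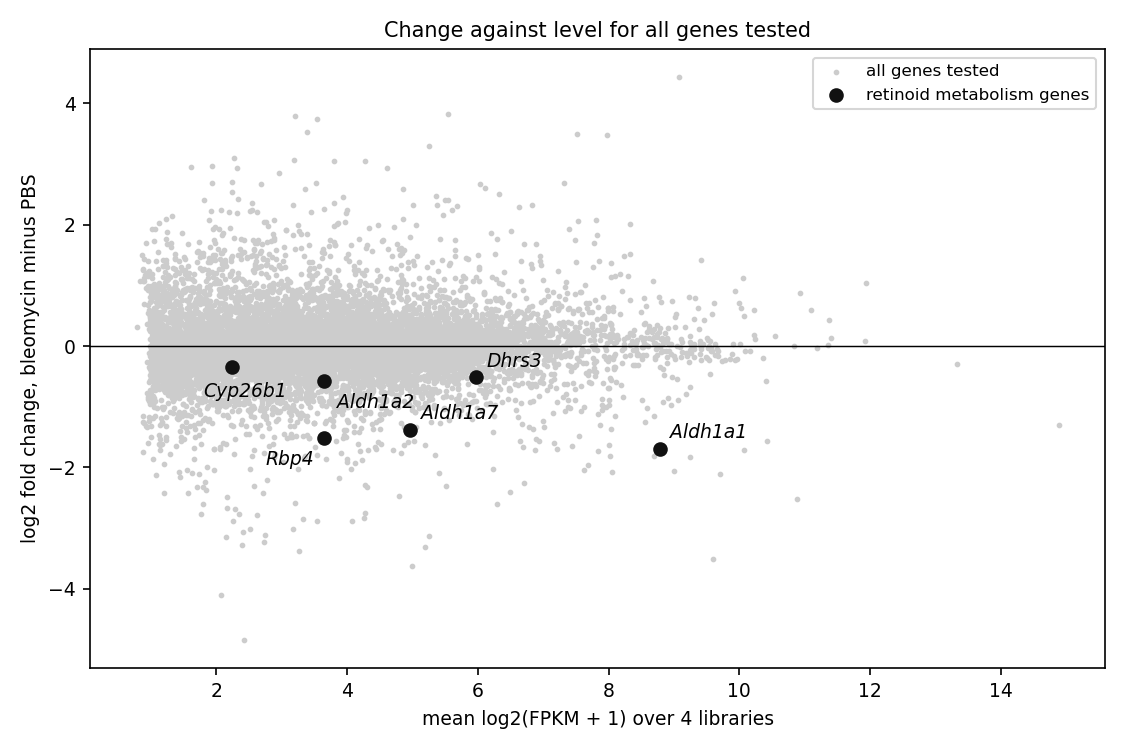
Log2 fold change, bleomycin minus PBS (vertical axis), against mean log2(FPKM + 1) over the 4 libraries (horizontal axis) for the 12986 genes tested (grey) and the 6 retinoid metabolism genes among them (black). Aldh1a1 is the rightmost of the 6, at -1.69, and all 6 lie below 0.

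The 3 genes whose centred values over the 4 libraries lay nearest to those of Aldh1a1 were 1810010H24Rik, Fgg and Ankrd63, at Euclidean distances of 0.0967, 0.106 and 0.107 on the log2(FPKM + 1) scale. With 4 libraries this is a description of shape only. Fgg, a fibrinogen chain gene, had 2.18 and 1.15 FPKM with bleomycin and 8.28 and 7.71 FPKM with PBS (-1.78 ± 0.21 on the log2 scale).

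The other genes of the pathway were taken from 5 lists of 61 genes, 60 of them in the table and 39 tested. Of these 2 rose, 9 fell and 28 did not pass, against 8.59% risen and 7.69% fallen over all genes. The median log2 change was -0.25 against -0.02 over all genes. These lists too were chosen with earlier results of these data known, so the counts only describe them.

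Retinol carriage, uptake and storage held most of the calls, with 2 of 12 tested genes risen, 5 fallen and 5 not passing. Lrat, whose product esterifies retinol for storage, showed the largest change on the log2(FPKM + 1) scale among the retinoid genes tested, while Ttr fell further by the ratio of group means (11.1-fold). It stood at 3.07 and 3.54 FPKM in the bleomycin libraries and at 25.1 and 37.4 FPKM in the PBS libraries, 9.45-fold lower by group means (log2 fold change -2.88 ± 0.20, adjusted p = 0.00616 by limma). Ttr, whose product transthyretin carries RBP4 in plasma, stood at 0.50 and 0.40 FPKM with bleomycin and 5.55 and 4.47 FPKM with PBS (-2.05 ± 0.15 on the log2 scale). Ces1d, a carboxylesterase gene, fell to 102 ± 47.8 FPKM with bleomycin, against 306 ± 26.9 FPKM with PBS (-1.65 ± 0.33 on the log2 scale), a call lost without a filter (adjusted p = 0.0767 by limma). Its relative Ces1f fell to 0.64 ± 0.08 FPKM with bleomycin, against 3.68 ± 1.15 FPKM with PBS. Whether reads could be split between these related genes was not tested. Ttr and Ces1f averaged under 1 FPKM with bleomycin and passed the filter of 1 FPKM through their PBS values. Pnpla2, a lipase gene, was at the threshold (-0.41 ± 0.09, adjusted p = 0.0494 by limma), and its call held under 6 of 14 alternatives, with adjusted p up to 0.0687 by limma among those that kept all libraries and used no block. The 2 rises were Scarb1, a lipoprotein receptor that also takes up carotenoids, at 114 ± 7.19 FPKM with bleomycin and 54.8 ± 0.02 FPKM with PBS, and Lrp2, the endocytic receptor megalin, at 4.76 ± 0.65 FPKM with bleomycin and 2.04 ± 0.03 FPKM with PBS.

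The alveolar fibroblast and lipofibroblast markers were also lower with bleomycin, with 6 of 8 fallen and none at 0. They summed to 626 and 460 FPKM with bleomycin and 2931 and 3525 FPKM with PBS. The hepatocyte markers given above were lower too. All genes that fall between 2 groups share this direction, so it ties none of the falls to a cell type. The 6 club and secretory markers summed to 19512 and 20125 FPKM with bleomycin and 56612 and 42728 FPKM with PBS, with 2 of 6 fallen and none at 0. That sum was nearly all Scgb1a1, at 18857 and 19751 FPKM with bleomycin and 54415 and 41165 FPKM with PBS. Scgb1a1 itself did not pass (adjusted p = 0.131 by limma), and Scgb3a1, Bpifa1 and Bpifb1 overlapped between the groups. The 6 ciliated markers summed to 244 and 106 FPKM with bleomycin and 539 and 509 FPKM with PBS, with 1 of 6 fallen. The 8 endothelial markers summed to 880 and 814 FPKM with bleomycin and 1215 and 1200 FPKM with PBS, with 4 of 8 fallen. The sums of alveolar type II markers overlapped between the groups, at 14046 and 11006 FPKM with bleomycin and 12908 and 15680 FPKM with PBS, and 2 of 9 rose, Sftpd and Napsa. Other lists were higher with bleomycin, as Scarb1 and Lrp2 were. The 6 recruited macrophage markers summed to 1382 and 997 FPKM with bleomycin and 261 and 267 FPKM with PBS, with 5 of 6 risen. The 6 myofibroblast markers summed to 664 and 849 FPKM with bleomycin and 342 and 343 FPKM with PBS, with 4 of 5 tested risen and Grem1 listed at 0 in 1 PBS library. Over all genes tested 8.59% rose and 7.69% fell, so 1 or 2 calls in so short a list say little about it. The part of any of these lists in the changes of Aldh1a1 and of the pathway genes was not tested.

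**Figure D3:**
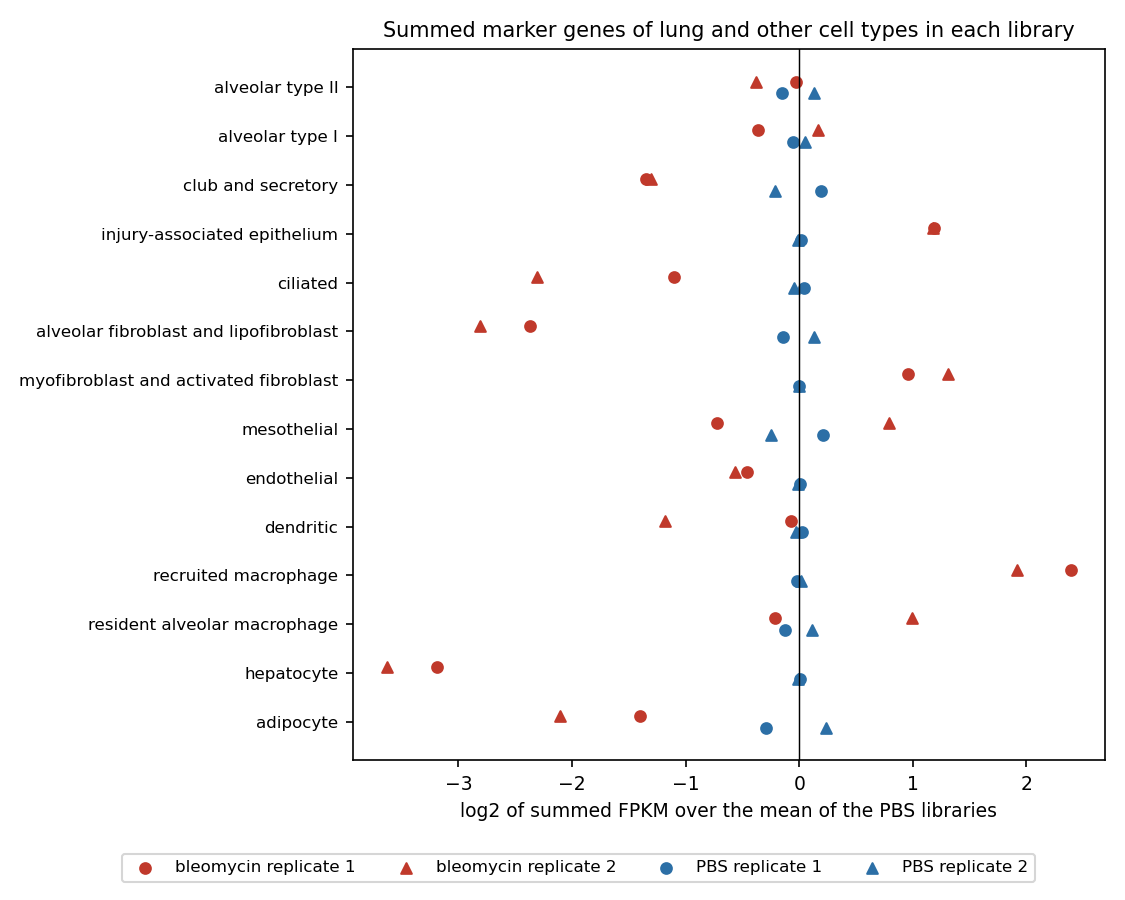
Log2 of the summed FPKM of each marker list over the mean of the PBS libraries (horizontal axis) in the bleomycin libraries (red) and the PBS libraries (blue); circles are replicate 1 and triangles replicate 2. Both bleomycin libraries lie left of the PBS libraries for the hepatocyte, alveolar fibroblast, ciliated, club, adipocyte, endothelial and dendritic lists. They lie on both sides of the PBS libraries for the mesothelial, alveolar type I and resident alveolar macrophage lists.

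Of the enzymes that interconvert retinol and retinaldehyde, 0 of 10 tested rose, 1 fell and 9 did not pass. Over all genes tested 8.59% rose and 7.69% fell, so these counts are near those of the whole table. The fall was that of Adh1, an alcohol dehydrogenase gene, at 117 ± 1.53 FPKM with bleomycin and 161 ± 5.06 FPKM with PBS (log2 fold change -0.46 ± 0.08, adjusted p = 0.0293 by limma). Dhrs4, a carbonyl reductase gene and the next most abundant, stood at 19.9 ± 2.89 FPKM with bleomycin and 18.2 ± 0.18 FPKM with PBS. In the list of binding and breakdown 1 of 4 genes could be tested, Fabp5, a fatty acid binding protein gene, and it did not pass. Fabp5 stood at 107 and 47.3 FPKM with bleomycin and 34.1 and 53.5 FPKM with PBS, while Crabp2 was at 0.06 and 0.19 FPKM with bleomycin and at 0.06 FPKM and listed at 0 with PBS.

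Among the nuclear receptors, 0 of 5 tested rose, 1 fell and 4 did not pass, against 8.59% risen and 7.69% fallen over all genes. All 5 were lower in both bleomycin libraries than in either PBS library, as were 35.0% of all genes tested. Rarg, a retinoic acid receptor, fell to 33.8 ± 1.70 FPKM with bleomycin, against 46.8 ± 3.25 FPKM with PBS (log2 fold change -0.45 ± 0.09, adjusted p = 0.0375 by limma). That call held under 7 of 14 alternatives, and it was lost with no filter, rescaling to TPM, upper quartile scaling or eBayes without trend (adjusted p between 0.0533 and 0.0554 by limma). Rxrb, a retinoid X receptor, stood at 25.5 ± 1.96 FPKM with bleomycin and 30.5 ± 0.42 FPKM with PBS and did not pass. Of 11 tested genes known as targets of retinoic acid, 0 rose, 2 fell and 9 did not pass, beside the same shares of all genes. Rarres2, the chemerin gene, stood at 156 ± 30.8 FPKM with bleomycin and 336 ± 11.99 FPKM with PBS (-1.12 ± 0.16 on the log2 scale). The homeobox gene Hoxb5 stood at 5.76 ± 0.06 FPKM with bleomycin and 11.6 ± 0.74 FPKM with PBS (-0.89 ± 0.10 on the log2 scale). Of the 11 targets, 7 were lower without overlap and 1 was higher, against 35.0% and 31.5% of all genes tested. The higher one was Tgm2, named here for its direction. It stood at 283 and 275 FPKM with bleomycin and 230 and 265 FPKM with PBS and did not pass.

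**Figure D4:**
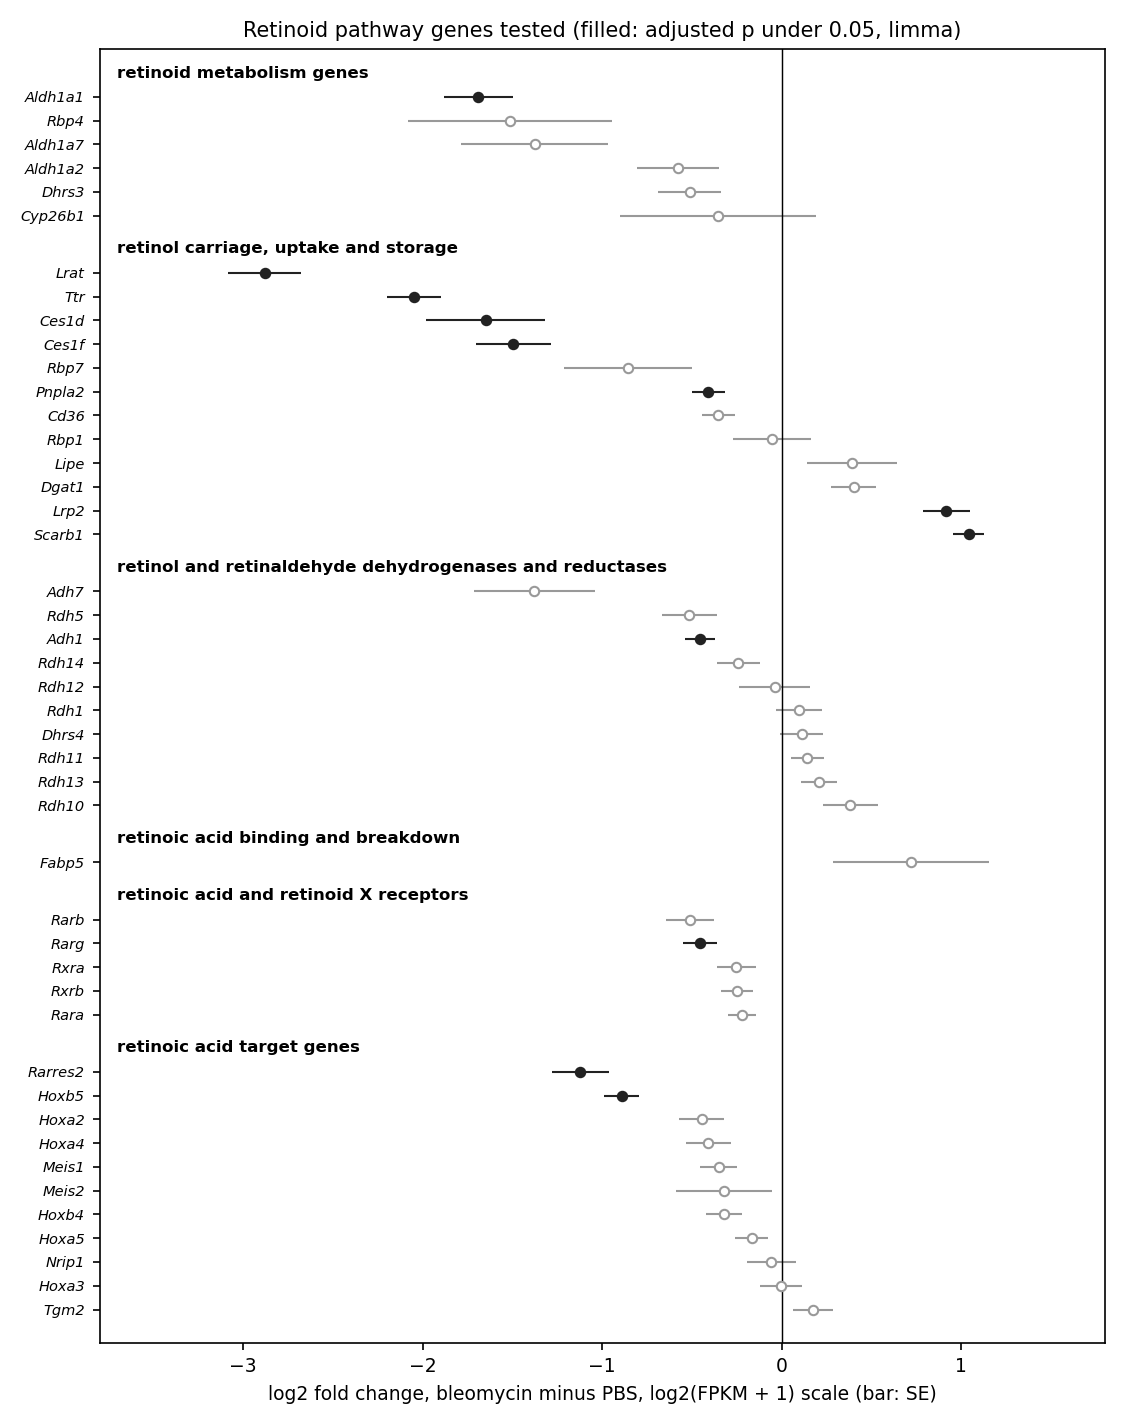
Log2 fold change, bleomycin minus PBS, with its SE (horizontal axis, log2(FPKM + 1) scale) of the retinoid metabolism genes and the 39 other retinoid pathway genes tested; filled points passed an adjusted p of 0.05 by limma. Filled points lie mostly left of 0, led by Lrat at -2.88, while Lrp2 and Scarb1 lie to the right at 0.92 and 1.04.

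Retinoic acid receptors bind pairs of 6-base half-sites. The 32851 RefSeq promoter windows of 300 bases (build GRCm38.p6) were searched on both strands for any pair of the half-sites, whose letters were AGGTCA in the first form searched, AGTTCA in the second form searched, GGTTCA in the third form searched and GGGTCA in the fourth, in the same direction with a spacer of 1, 2 or 5 bases of any letter, a search in which windows of different starts of 1 gene can overlap. Such a pair occurs in 0.588% of all windows and in none of the 15 windows of the 8 retinoid metabolism genes that have one. Among the other pathway genes it was found in Bco1, Cyp26a1 and Rarb. The 2 sites with a spacer of 5 bases are shown because both belong to genes of the retinoic acid response, with the half-sites in capitals. That of Rarb lies at chr14:16575513-16575529, minus strand, and that of Cyp26a1 at chr19:37697776-37697792, also minus strand.
Rarb: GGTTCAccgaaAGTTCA
Cyp26a1: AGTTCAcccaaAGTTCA
Rarb, a receptor gene chosen here for its site after its values were seen, stood at 1.56 and 1.38 FPKM with bleomycin and 2.69 and 2.35 FPKM with PBS, without overlap but not past the test (log2 fold change -0.51 ± 0.13, adjusted p = 0.0663 by limma). Cyp26a1, which encodes another enzyme that degrades retinoic acid, stood at 0.09 and 0.03 FPKM with bleomycin and at 0 and 0.06 FPKM with PBS, too low for a comparison. The single half-site GGGTCA lies, on the opposite strand, inside the 65 bases that the Aldh1a1 and Aldh1a7 promoters share, and it occurs in 13.7% of all windows.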

How the data were processed

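Lung RNA of mice given bleomycin or PBS was sequenced, and each library's title gave its group and number. The values are FPKM in 1 table that the authors deposited, per the file headers. Per the submitters' processing notes, HISAT and Bowtie2 were used with mm10 or GRCm38. Their roles, the quantification tool and the strand setting were not stated there. A gene that takes many fragments lowers the FPKM of the others.

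Of 17692 rows, 1 without a name was left out and 27 names that had become dates were restored by transcript accession. Of 17691 genes 16961 matched a RefSeq symbol (GRCm38.p6). The test was limma 3.58.1 (R 4.3.3) of log2(FPKM + 1) (eBayes with a trend, prior degrees of freedom 2.76, residual 2) for genes averaging 1 FPKM or more. The log2(FPKM + 1) scale understates the change of low genes. Depth was estimated from genes with 1 transcript of 300 to 1000 bases and values of 0.03 to 0.3 FPKM, of which 75.0% to 78.1% lay within 0.15 of a whole fragment at the best depth. Transcript lengths and sequences come from GENCODE M21, and identities from global alignments in Biopython 1.88. The fit was also run on values simulated from its own variances with known changes. That checks the code and says nothing of the calls made here.

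The genes and lists were chosen with earlier results of these data known. From the pathway lists, every called gene is named, and where fewer than 2 were called, those with the highest means. Alternatives were pseudocounts of 0.1 and 0.5, no filter, a filter at 5 FPKM, 3 scalings (quantile, TPM, upper quartile), eBayes without trend or robust, the omission of each library in turn, and a replicate block. Tables were made in Python 3.11.15 (pandas 2.3.3, scipy 1.17.1, numpy 2.4.6).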

Additional observations from a re-analysis of the deposited data

How the results depend on the processing

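Aldh1a1 kept its direction under all 14 alternatives and its call under 12, with log2 fold changes between -1.94 and -1.44 and adjusted p between 2.91e-05 and 0.168 by limma. The call was lost without either PBS library. A fit without a library of one group takes its spread from the other group's pair alone, so calls held or gained without a bleomycin library do not show stability. The sum of Aldh1a1 and Aldh1a7 also lost its call without PBS replicate 1 (-1.60, adjusted p = 0.173 by limma) or 2 (-1.74, adjusted p = 0.176), and ranged between -1.94 and -1.40 over the 4 fits that leave out a library. Leaving out a library moved the counts of all genes to between 0 and 2393 higher and between 0 and 3180 lower, those of the retinoid metabolism genes to between 0 and 4 lower, and those of the other pathway genes to between 0 and 5 higher and between 0 and 18 lower. Without a PBS library limma called 0 genes at an adjusted p under 0.05, and at an unadjusted p under 0.05 it gave 1137 higher and 993 lower without replicate 1 and 1160 and 1048 without replicate 2. In those 2 fits Aldh1a1 had an unadjusted p of 0.00536 and 0.00425. The 4 retinoid metabolism genes called without bleomycin replicate 1 were Aldh1a1, Aldh1a7, Rbp4 and Dhrs3, and without replicate 2 Aldh1a1, Aldh1a2, Aldh1a7 and Rbp4.

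The library titles give replicate numbers without saying whether they mark pairs. The deviations of same-numbered libraries had a correlation of 0.02 over genes, which does not settle it. With a replicate block 2 retinoid metabolism genes were lower, Aldh1a7 joining Aldh1a1 (adjusted p = 0.0321 by limma), the calls of Adh1, Rarg and Pnpla2 were lost (adjusted p = 0.0637, 0.0551 and 0.0909), and 842 genes of the table were higher and 799 lower. A filter at 5 FPKM left 1 higher pathway gene, since Lrp2 was then not tested. Cyp26b1 reversed, to 0.10 without bleomycin replicate 1 and 0.34 without PBS replicate 2, within a range of -1.04 to 0.34 over the fits that leave out a library. The median log2 change of all genes lay between -0.02 and 0.04 under every scaling. Crabp1, Stra6 and Aldh1a3 rest on at most 81 estimated fragments a library.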

Other observations

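Below the filter of 1 FPKM, 2 other retinoid genes, chosen after their values were seen, stood apart between the groups. Stra6l, which encodes a relative of STRA6, was at 1.47 and 1.03 FPKM in the bleomycin libraries and at 0.26 and 0.28 FPKM in the PBS libraries (log2 fold change 0.82 ± 0.12, adjusted p = 0.0393 by limma without a filter). Rdh7, a retinol dehydrogenase gene, was at 0.03 and 0.07 FPKM in the bleomycin libraries and at 1.09 and 0.87 FPKM in the PBS libraries (-0.91 ± 0.08, adjusted p = 0.0228 by limma without a filter). With the longer of its 2 transcripts, the Rdh7 values correspond to about 1 and 2 fragments with bleomycin and 31 and 25 with PBS. The hepatocyte markers were also lower with bleomycin, and their part in the Rdh7 values was not tested.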
